A study of Caenorhabditis elegans with 12 samples.

Results

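Day 12 was compared with day 9 in whole worms of Caenorhabditis elegans, within each of 2 strains. The 4 libraries, 1 per strain and day, were taken by their labels from a series of 12. They are N2 at days 9 and 12, labelled wild type, and CN30 at days 9 and 12, labelled trans-nuclear, and the sample titles spell that strain NC30. The labels name neither the source of the CN30 nucleus nor that of its mitochondria, nor the stage from which days are counted. All worms ate Escherichia coli OP50 on NGM plates, and total RNA of whole animals was taken with Trizol. The series relates age and mitochondrial polymorphism to the transcriptome. It also holds 1 library per strain at day 6 and 3 per strain at day 0, which entered the fit as further ages. Nothing in the labels says that libraries came from separate cultures, so the p-values measure the spread between these libraries, which may be technical.

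The adult intestine of C. elegans is a single tube of large cells that digests bacteria, stores fat, and secretes yolk proteins that the oocytes take up. The same cells make lysozymes, saposin-like proteins, C-type lectins and other secreted effectors that act on ingested microbes. The cuticle is built of collagens made by the hypodermis around each moult, major sperm proteins are made in the male germline and in the hermaphrodite during spermatogenesis, and small heat shock proteins are induced when proteins misfold.

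The values were FPKM, a level corrected for gene length and for the fragments mapped in each library, for 22191 mRNA features, 3167 of them loci that the authors assembled from reads. The summed FPKM of the 4 libraries lay between 726252 and 779302, and the sequencing depth is unknown. N2 at day 9 had 11934 genes at 1 FPKM or more, against 12565 in N2 at day 12 and 13315 and 13247 in CN30 at days 9 and 12. The median absolute log2 difference between days 9 and 12 was 0.246 in N2 and 0.183 in CN30. The median absolute difference between the strains was larger, 0.303 at day 9 and 0.271 at day 12. Markers of the main tissues were present in all 4 libraries, with a summed level of 32 body-wall muscle and sarcomere genes between 2234 and 2652 FPKM and of 27 neuron markers between 364 and 475 FPKM.

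Between day 9 and day 12, 46 genes fell and 6 rose in a test over both strains. Those that fell include 3 lysozymes (lys-1, lys-2 and lys-7), 4 C-type lectins, 3 antimicrobial and pathogen response genes and 7 histone genes. The smallest adjusted p, 0.00044, belonged to the uncharacterised D2030.3, which was listed at 0 in N2 at day 12 and in every day-0 library. The test was limma on log2(FPKM + 1) with strain and day as factors over 12 libraries, and a gene passed at a Benjamini-Hochberg adjusted p under 0.05. Of 15719 genes tested, 0.331% passed in either direction, 0.293% lower and 0.0382% higher at day 12. At an unadjusted p under 0.05 the counts were 811 lower and 696 higher. The median log2 change of all genes was 0.04, being 0.10 in N2 and -0.01 in CN30. Changes on this scale understate the fold of low genes.

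Of the 46 genes that fell, 32 were at least 2-fold lower in each strain, a size that 154 of all genes tested, or 0.98%, reached. For rises of that size the number was 47, or 0.299%. In 51 of the 52 genes that passed, the day-9 and day-12 libraries did not overlap. Among all genes tested, 14% lay lower at day 12 without overlap and 15.3% lay higher without overlap. The genes that fell had a median level of 35.9 FPKM over the day-9 libraries, against 8.45 FPKM for all genes tested. On chromosome IV lay 23 of the 46, or 50.0%, against 17% of all genes tested. Of the 23, 7 are histone genes, some of them copies with identical values, and 16 are other genes. Across the 15719 genes, the change in N2 and the change in CN30 had a Pearson correlation of 0.305. Genes are not independent replicates, and each change is the difference of 2 single libraries.

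**Figure D1:**
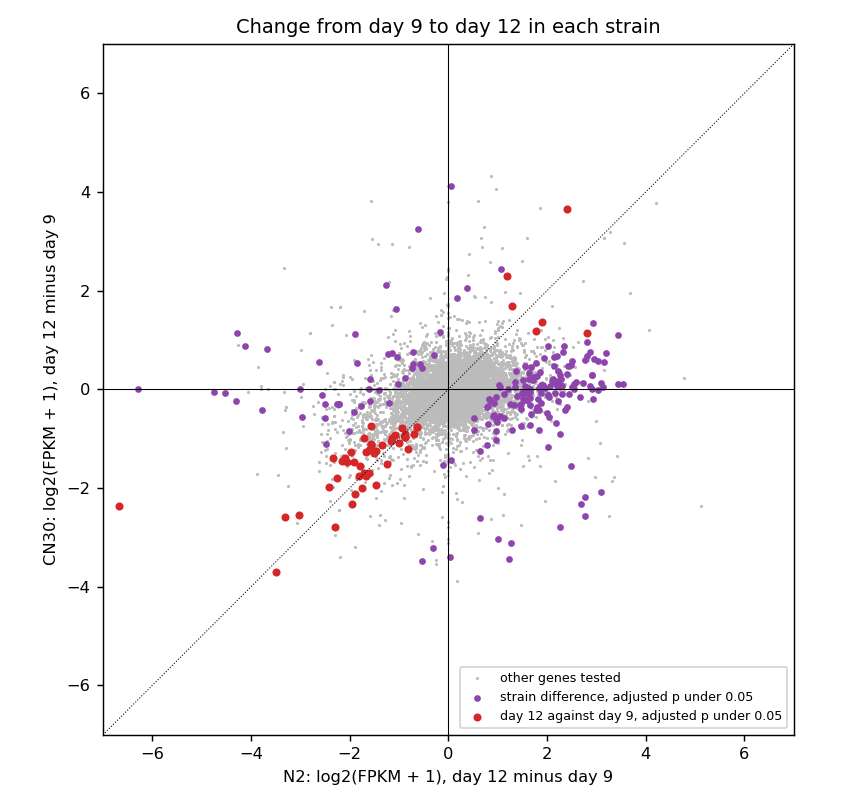
Change in log2(FPKM + 1) from day 9 to day 12 in N2 (horizontal) against that in CN30 (vertical), 1 point per gene tested. Red points passed day 12 against day 9 and lie mostly near the dotted line of equal change, in the lower left quadrant. Purple points passed the test of a strain difference and spread mainly along the N2 axis.

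The count of genes that passed depends on single libraries. It was 10 without N2 day 9, 12 without N2 day 12, 30 without CN30 day 12 and 175 without CN30 day 9. Among the day-0 libraries it was 84 and 32 without N2 replicates 2 and 3, and 22 and 15 without CN30 replicates 1 and 3. With the spread taken from the 4 libraries of days 9 and 12 alone, 0 genes passed with limma and 1595 had an unadjusted p under 0.05, and with days 6, 9 and 12 alone the numbers were 0 and 1825.

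Lysozymes, which cleave bacterial cell walls, had the lowest median change after yolk proteins and lysosomal lipases. Of 12 lysozyme genes tested, 3 fell and 0 rose, and the median log2 change was -1.09 against 0.04 for all genes. Of the 3 that fell the most abundant was lys-7, which in N2 was listed at 1041.04 FPKM at day 9 and 326.5 at day 12, and in CN30 at 995.52 and 415.62. Both strains thus held about the same level on each day, and both day-12 libraries lay below both day-9 libraries. The log2 change of lys-7 was -1.46 ± 0.12 (SE, 2 against 2 libraries, adjusted p = 0.0015).

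The lysozyme genes lys-1 and lys-2 lie side by side on chromosome V, at V:10277904-10279056 and V:10280307-10281474 in WBcel235, 1251 bases apart. Levels are given for day 9 first and day 12 second. In N2 lys-1 went from 139.67 to 28.44 FPKM, and in CN30 from 103.62 to 29.24. For lys-2 the levels were 59.99 and 5.14 FPKM in N2, with 39.58 and 5.76 in CN30. The strains were alike at day 12 for each gene, and the days did not overlap. The log2 change was -2.02 ± 0.25 for lys-1 (adjusted p = 0.0148) and -2.95 ± 0.46 for lys-2 (adjusted p = 0.0355), the latter the largest fall among annotated genes with no exact 0. The lysozyme gene lys-3 lies beyond lys-2, at V:10282100-10283544, and moved the other way without passing (adjusted p = 0.43). Its levels were 1.62 and 12.34 FPKM in N2, with 3.82 and 4.14 in CN30. Of the 12 lysozyme genes tested, 8 were lower at day 12 in both strains and 1 was higher in both. Among all genes tested the shares were 24.7% and 34.6%.

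A further lysozyme, lys-8, did not pass, at 188.52 and 37.01 FPKM in N2, compared with 74.42 and 26.31 in CN30 (adjusted p = 0.077). The most abundant lysozyme gene at day 9 in N2, ilys-5 of the invertebrate type, did not pass either, with 2376.73 FPKM at day 9 and 248.38 at day 12 in N2 and with 210.14 and 53.8 in CN30 (adjusted p = 0.237). It makes up most of the N2 day-9 sum. The summed level of the 15 lysozyme genes in the table was 4000 FPKM at day 9 and 712 at day 12 in N2, and 1645 and 654 in CN30. In bulk samples such as these, fewer cells of a type and less RNA per cell cannot be told apart. The summed level of 17 intestine markers moved the same way, from 4990 to 1371 FPKM in N2 and from 1962 to 1085 in CN30. Most of each sum came from cpr-1 and asp-1, which are also counted among the proteases below. In N2 at day 9 they were at 2130.68 and 2037.18 FPKM. Of the 16 intestine markers tested, 0 passed and 15 had at least 1 FPKM in all 4 libraries. At day 12, 12 were lower in both strains and 3 higher in both, against 24.7% and 34.6% of all genes tested. The part of these markers in the changes of single genes was not tested.

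**Figure D2:**
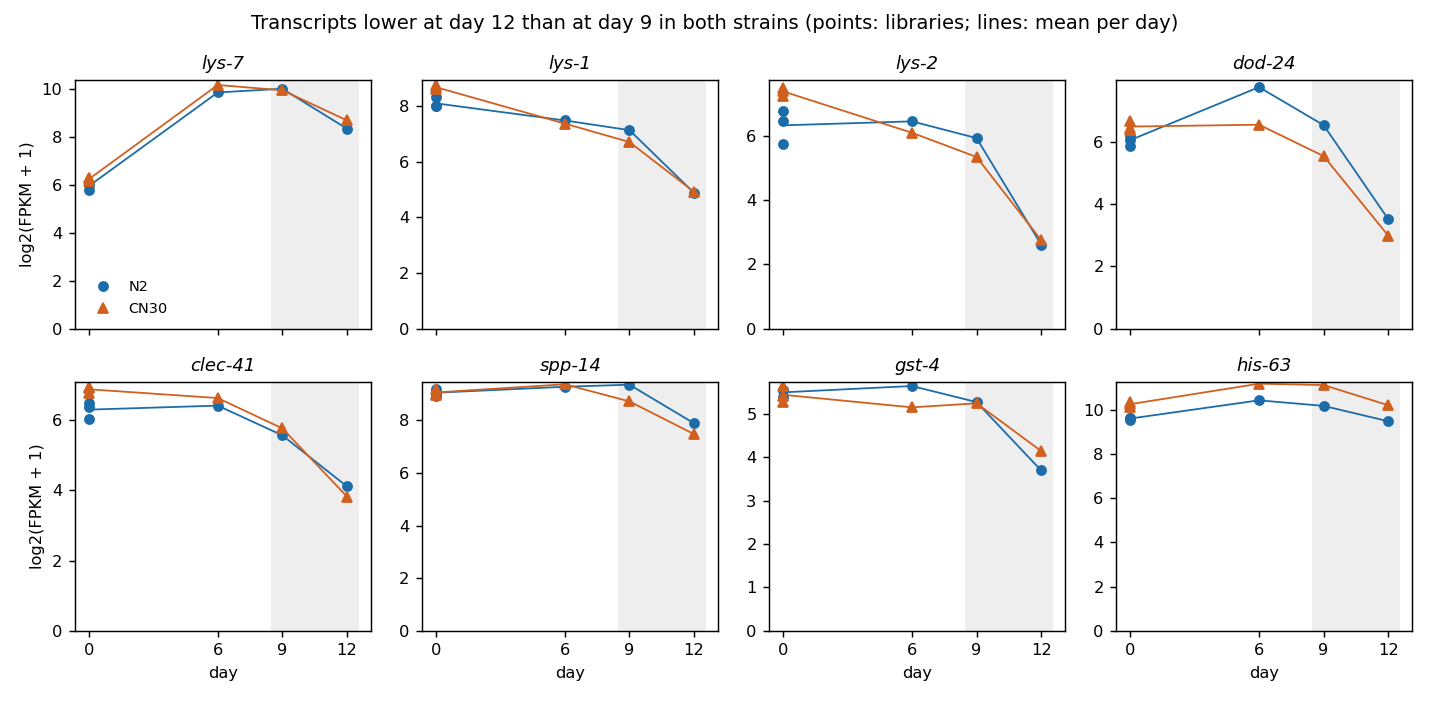
Levels of 8 genes that fell, as log2(FPKM + 1) against day, with N2 as circles and CN30 as triangles. Each point is a library, lines join the mean of each day, and grey marks days 9 and 12. Both day-12 points lie below both day-9 points in every panel but that of his-63, and lys-7 stands above its day-0 level at each later age.

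Of 73 antimicrobial and pathogen response genes, 3 fell, 0 rose and 70 did not pass, and the median log2 change was -0.55. In this group 16 genes were at least 2-fold lower in both strains, against 0.98% of all genes tested. The infection response gene irg-6 had 6.41 and 0.91 FPKM in N2 and, in CN30, 13.55 and 1.92. The strains thus differed in level while falling in parallel, with a log2 change of -2.14 ± 0.20 (adjusted p = 0.00331). For spp-14, a saposin-like protein of the family whose members permeabilise bacterial membranes, the levels were 655.74 and 236.28 FPKM in N2, with 421.67 and 177.3 in CN30 (log2 change -1.36 ± 0.18, adjusted p = 0.0212). Its day-12 libraries lay below both day-9 libraries.

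The related antibacterial gene spp-1 went from 100.93 FPKM to a listed 0 in N2, and from 35.1 to 6.0 FPKM in CN30, so no fold is given for N2. It passed with an adjusted p of 0.0469. The gene overlaps an assembled locus, MXLOC_009804, which was listed at 70.62 and 46.22 FPKM in N2, compared with 49.02 and 33.8 in CN30. Whether reads passed from one feature to the other was not tested. The uncharacterised D2030.3, also at 0 in N2 day 12, had 10.24 FPKM at day 9 in N2 and 12.99 and 0.07 in CN30. It was also listed at 0 in every day-0 library, so those libraries add no replicate spread, and an exact 0 may be a missing estimate. D2030.3 too overlaps an assembled locus, and 4 of the 46 genes that fell do so. Its locus, MXLOC_002431, was at 47.79 and 55.2 FPKM in N2, with 41.28 and 41.45 in CN30.

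The CUB-domain gene dod-24, known as a target downstream of the FOXO factor DAF-16, had 91.47 and 10.43 FPKM in N2 and, in CN30, 45.45 and 6.92. It was higher in N2 on each day, and the days did not overlap. Its log2 change was -2.78 ± 0.41 (adjusted p = 0.0251). F55G11.6 and F55G11.8 follow dod-24 on chromosome IV, with gaps of 16676 and 3214 bases, and both fell. F55G11.8 had 4.26 and 0.73 FPKM in N2, with 4.49 and 0.69 in CN30. F55G11.6 was low throughout, at 0.77 and a listed 0 FPKM in N2 and 1.73 and 0.19 in CN30, so no fold is given for N2.

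C-type lectins, secreted or membrane proteins with a sugar-binding fold, gave 4 of 110 genes that fell and 0 that rose, with a median log2 change of -0.37. The levels of clec-186 were 22.54 and 4.25 FPKM in N2, compared with 18.53 and 6.09 in CN30 (log2 change -1.81 ± 0.19, adjusted p = 0.00653). For clec-41 they were 46.5 and 16.32 FPKM in N2 and, in CN30, 53.51 and 13.17 (log2 change -1.70 ± 0.22, adjusted p = 0.0195). Neither gene overlapped between days. The other 2, clec-173 and clec-83, changed by -1.70 and -0.89 on the log2 scale. A galectin, lec-9, was at 16.79 and 4.44 FPKM in N2, with 8.68 and 3.88 in CN30 and fell as well (adjusted p = 0.0469), although it overlaps an assembled locus.

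Yolk protein genes, expressed in the hermaphrodite intestine, had the lowest median of the lists with at least 5 members tested, -1.90, yet 0 of 6 passed. All 6 were lower at day 12 in both strains without overlap, 5 of them by at least 2-fold in each strain, and 5 had an unadjusted p under 0.05. Of the 15719 genes tested, 14% lay lower without overlap, 0.98% were at least 2-fold lower in each strain and 811 were lower at that unadjusted p. The levels of vit-2 were 1540.38 and 500.02 FPKM in N2, compared with 1023.66 and 491.05 in CN30 (log2 difference -1.34 ± 0.37, adjusted p = 0.219). Those of vit-5 were 3127.4 and 567.89 FPKM in N2 and, in CN30, 894.56 and 385.43 (adjusted p = 0.292). N2 at day 9 stood above the other 3 libraries of days 9 and 12 for both. The summed level of the 6 genes was 7966 and 1985 FPKM in N2, with 3365 and 1584 in CN30. Because vit-3, vit-4 and vit-5 are close copies, how their reads were divided is uncertain. One day-0 library, N2 replicate 2, held 883.37 FPKM of vit-5 against 225.43 and 235.22 in the other N2 libraries, a spread that enters the standard errors of these genes.

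Digestive proteases did not pass either. Of 21 aspartyl and cathepsin proteases 0 passed, while 20 were lower at day 12 in both strains (24.7% of all genes tested were), 11 had an unadjusted p under 0.05 and the median log2 change was -1.04. The cathepsin B gene cpr-1 was listed at 2130.68 and 381.07 FPKM in N2, compared with 625.14 and 288.09 in CN30 (adjusted p = 0.146). The aspartyl protease asp-6 was listed at 1345.99 and 485.16 FPKM in N2 and, in CN30, 925.63 and 489.3 (adjusted p = 0.15). In both genes N2 at day 9 was the highest of the 4 libraries. Among 6 lysosomal lipases, which release fatty acids from stored fat, 0 passed and the median was -1.50. There lipl-5 had 213.4 and 52.49 FPKM in N2, with 115.74 and 40.37 in CN30 (adjusted p = 0.116).

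Single enzymes with roles in digestion and lipid transport did pass. The acid alpha-glucosidase aagr-1, which breaks down glycogen in lysosomes, had 21.66 and 4.3 FPKM in N2, compared with 15.03 and 5.12 in CN30 (log2 change -1.74 ± 0.26, adjusted p = 0.0274). The astacin metalloprotease nas-20 had 19.54 and 6.23 FPKM in N2 and, in CN30, 13.07 and 4.77 (adjusted p = 0.0251). The lipid transfer gene nlt-1 went from 41.04 to 13.2 FPKM in N2 and from 37.8 to 22.09 in CN30 (log2 change -1.16 ± 0.18, adjusted p = 0.0358). In none of the 3 did the days overlap. Fatty acid desaturases, elongases and lipid binding genes gave 0 of 85 that passed, with a median of -0.14.

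**Figure D3:**
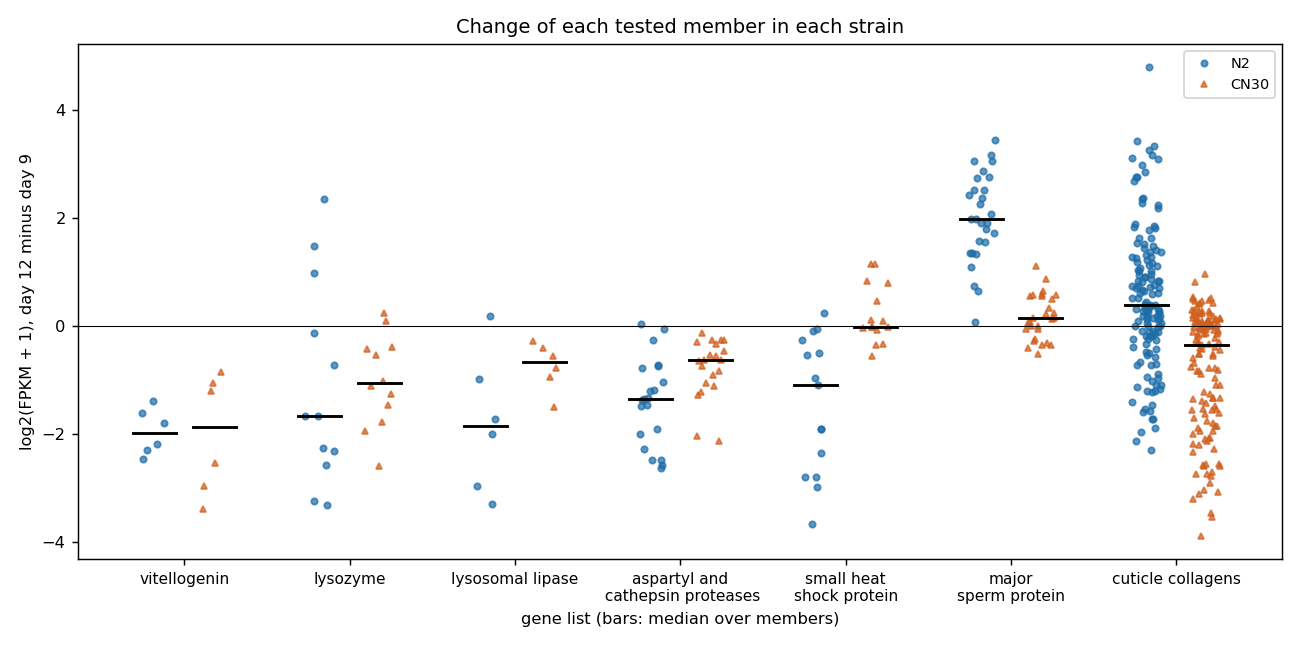
Change in log2(FPKM + 1) from day 9 to day 12 of each tested member of 7 gene lists, in N2 (circles) and CN30 (triangles), with black bars at the medians. All 6 yolk genes are below 0 in both strains, whereas major sperm protein genes and collagens sit higher in N2 than in CN30.

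Among genes of detoxification, 1 passed. It was gst-4, a glutathione S-transferase widely used as a reporter of the oxidative stress factor SKN-1, at 37.5 and 11.93 FPKM in N2, with 36.75 and 16.63 in CN30. The strains were alike at day 9, and the log2 change was -1.34 ± 0.19 (adjusted p = 0.0243). The remaining 37 glutathione S-transferases did not pass, and the median of all 38 was -0.13. Of 46 cytochrome P450 genes and 51 UDP-glycosyltransferases 0 passed, with medians of -0.18 and -0.36, and each had 9 genes lower at an unadjusted p under 0.05.

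Of 111 neuropeptide and insulin-like peptide genes, 1 fell and the median was -0.02. This was ins-7, an insulin-like peptide of the intestine that acts as an agonist of the DAF-2 receptor, at 34.76 and 10.68 FPKM in N2, compared with 22.74 and 9.16 in CN30. Both day-12 libraries lay below both day-9 libraries, with a log2 change of -1.42 ± 0.23 (adjusted p = 0.0387). The insulin-like gene ins-19 was at 23.73 and 5.64 FPKM in N2 and, in CN30, 11.38 and 4.33 (adjusted p = 0.0526). For daf-16, the FOXO factor that insulin signalling restrains, the levels were 30.97 and 47.9 FPKM in N2, with 27.99 and 45.13 in CN30 (log2 difference 0.64 ± 0.15, adjusted p = 0.17). It overlaps an assembled locus. Of 19 insulin pathway genes 0 passed, with a median of 0.08.

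Among 51 transthyretin-like genes 1 fell, ttr-41, from 40.4 to 12.94 FPKM in N2 and from 28.97 to 12.13 in CN30 (log2 change -1.38 ± 0.16, adjusted p = 0.00937). The list's median was -0.30. Of the genes that fell without belonging to a group, F52E1.14 was at 99.55 and 19.5 FPKM in N2, compared with 71.74 and 9.5 in CN30. C23H5.8 was at 43.16 and 7.31 FPKM in N2 and, in CN30, 10.08 and 1.81, so that CN30 at day 9 was near N2 at day 12. C14C6.5, drd-50 and C24B9.3 fell by 2.01, 1.87 and 1.77 on the log2 scale, with adjusted p of 0.0212, 0.0469 and 0.0418.

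Core histone genes gave 7 of 72 that fell and 0 that rose, all 7 on chromosome IV. They are the H3 genes his-45, his-55 and his-63 and the H2A genes his-47, his-57, his-61 and his-65, which package newly replicated DNA. The levels of his-63 were 1155.72 and 713.81 FPKM in N2, with 2222.51 and 1181.16 in CN30. CN30 stood above N2 on each day, and its day-12 library lay above the day-9 library of N2, so the days overlapped, as in no other gene that passed. The log2 change was -0.80 ± 0.10 (adjusted p = 0.0154). For his-61 the levels were 579.23 and 228.31 FPKM in N2, compared with 571.78 and 262.08 in CN30 (log2 change -1.23 ± 0.17, adjusted p = 0.0231), with no overlap.

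Of the histone genes, 31 had values identical in all 12 libraries to those of another histone gene, so reads of the copies were not told apart and the 7 are not 7 separate measurements. For example, his-45 and his-55 both had 1492.16 and 965.36 FPKM in N2 and, in CN30, 1462.83 and 858.25. The list's median was -0.06, being 0.07 in N2 and -0.45 in CN30. Of 38 DNA replication genes, 0 fell and the median was 0.07.

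The 6 features that rose were low at day 9. The gene H02F09.3 had 0.83 and 5.76 FPKM in N2, with 1.38 and 5.13 in CN30 (log2 change 1.63 ± 0.23, adjusted p = 0.0234). For ifas-1 the levels were 1.24 and 4.46 FPKM in N2, compared with 1.97 and 8.5 in CN30 (log2 change 1.48 ± 0.21, adjusted p = 0.0241). Both genes were higher at day 12 in each strain without overlap, and neither overlaps an assembled locus.

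The other 3 annotated genes that rose do overlap one, against 23.5% of the annotated genes tested. The mitochondrial ribosomal protein gene mrps-27 had 0.66 and 10.63 FPKM in N2 and, in CN30, 1.46 and 4.44 (adjusted p = 0.0469). For pole-3, an accessory subunit of DNA polymerase epsilon, the levels were 6.52 and 16.18 FPKM in N2, with 3.24 and 19.86 in CN30 (adjusted p = 0.0219). F48E8.4 was listed at 1.78 and 13.67 FPKM in N2, compared with 0 and 11.57 in CN30 (adjusted p = 0.00717). All 3 were listed at 0 in both day-6 libraries, and pole-3 and F48E8.4 also in the 6 day-0 libraries, so an exact 0 here may be a missing estimate. The loci they overlap, MXLOC_001625, MXLOC_009300 and MXLOC_007666, were at 33.46 FPKM or more in the 4 libraries. The sixth feature is an assembled locus, MXLOC_005473, at 0.89 and 5.49 FPKM in N2 and, in CN30, 1.99 and 5.79.

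Since only 4 annotated genes met every condition for a named rise, the 6 with the next smallest p are given as values. Among them pals-10 had 1.44 and 16.12 FPKM in N2, with 4.41 and 9.59 in CN30 (adjusted p = 0.0685). The related pals-3 had 1.39 and 16.46 FPKM in N2, compared with 3.46 and 6.5 in CN30 (adjusted p = 0.109). Both belong to the pals family, some of whose members are induced by intracellular pathogens, and both passed the test of a strain difference, with differences of -1.84 (adjusted p = 0.0109) and -2.12 (adjusted p = 0.0119) on the log2 scale, CN30 minus N2. Of 29 pals genes tested, a group counted after its values were seen, 11 passed that test with the lower change in CN30 and 0 with the higher. Among all genes tested the shares were 0.961% and 0.318%. Of the 29, 0 passed day 12 against day 9. In the day-0 libraries, which alone give the spread of the strain test, pals-10 was listed at 0 and pals-3 at 0.15 FPKM or less. The apoptosis inhibitor ced-9, the homologue of BCL2, had 6.81 and 26.15 FPKM in N2 and, in CN30, 6.78 and 13.03 (adjusted p = 0.0706), and it overlaps an assembled locus. R107.2, which also overlaps an assembled locus, was at 3.98 and 12.14 FPKM in N2, with 7.36 and 18.33 in CN30 (adjusted p = 0.0984). F08F3.4 was at 39.83 and 120.77 FPKM in N2, compared with 64.88 and 94.62 in CN30 (adjusted p = 0.112). Y37H2A.14 was at 14.67 and 47.72 FPKM in N2 and, in CN30, 22.32 and 34.65 (adjusted p = 0.117).

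Housekeeping lists had medians near that of all genes. In the cytosolic ribosomal protein list 0 of 73 passed, with a median of -0.09 that became 0.06 under quantile normalization, and rps-27 was at 1379.81 and 1022.66 FPKM in N2, with 1489.22 and 1023.22 in CN30 (adjusted p = 0.0706). Of 67 mitochondrial ribosomal protein genes 1 rose, mrps-27, with a median of 0.03. The median was -0.08 for 70 nuclear-encoded respiratory chain subunits, -0.15 for 22 citrate and glyoxylate cycle enzymes and -0.16 for 19 glycolysis enzymes, with 0 passing in each. It was 0.12 for 30 aminoacyl-tRNA synthetases, of which 18 were higher at day 12 in both strains, and 0.15 for 24 nucleolar genes, of which 19 were, against 34.6% of all genes tested. Of the 73 ribosomal protein genes 40 were lower in both strains, against 24.7% of all genes, and 17 had an unadjusted p under 0.05 with a lower level at day 12. The 33 proteasome subunits had a median of 0.00.

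Of 54 meiosis, P granule and germline genes and of 42 oocyte, eggshell and maternal genes 0 passed, with medians of 0.07 and -0.17. In the oocyte list 27 genes were lower at day 12 in both strains and 3 higher in both, and in the germline list 7 and 26. Among all genes tested the shares were 24.7% and 34.6%. The eggshell gene cpg-1 was at 2346.23 and 1740.79 FPKM in N2, compared with 1669.09 and 1345.46 in CN30 (adjusted p = 0.223). The median was -0.06 for body-wall muscle genes, 0.11 for neuron markers, 0.06 for hypodermis and seam markers and 0.08 for pharynx markers, each with 0 passing.

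**Figure D4:**
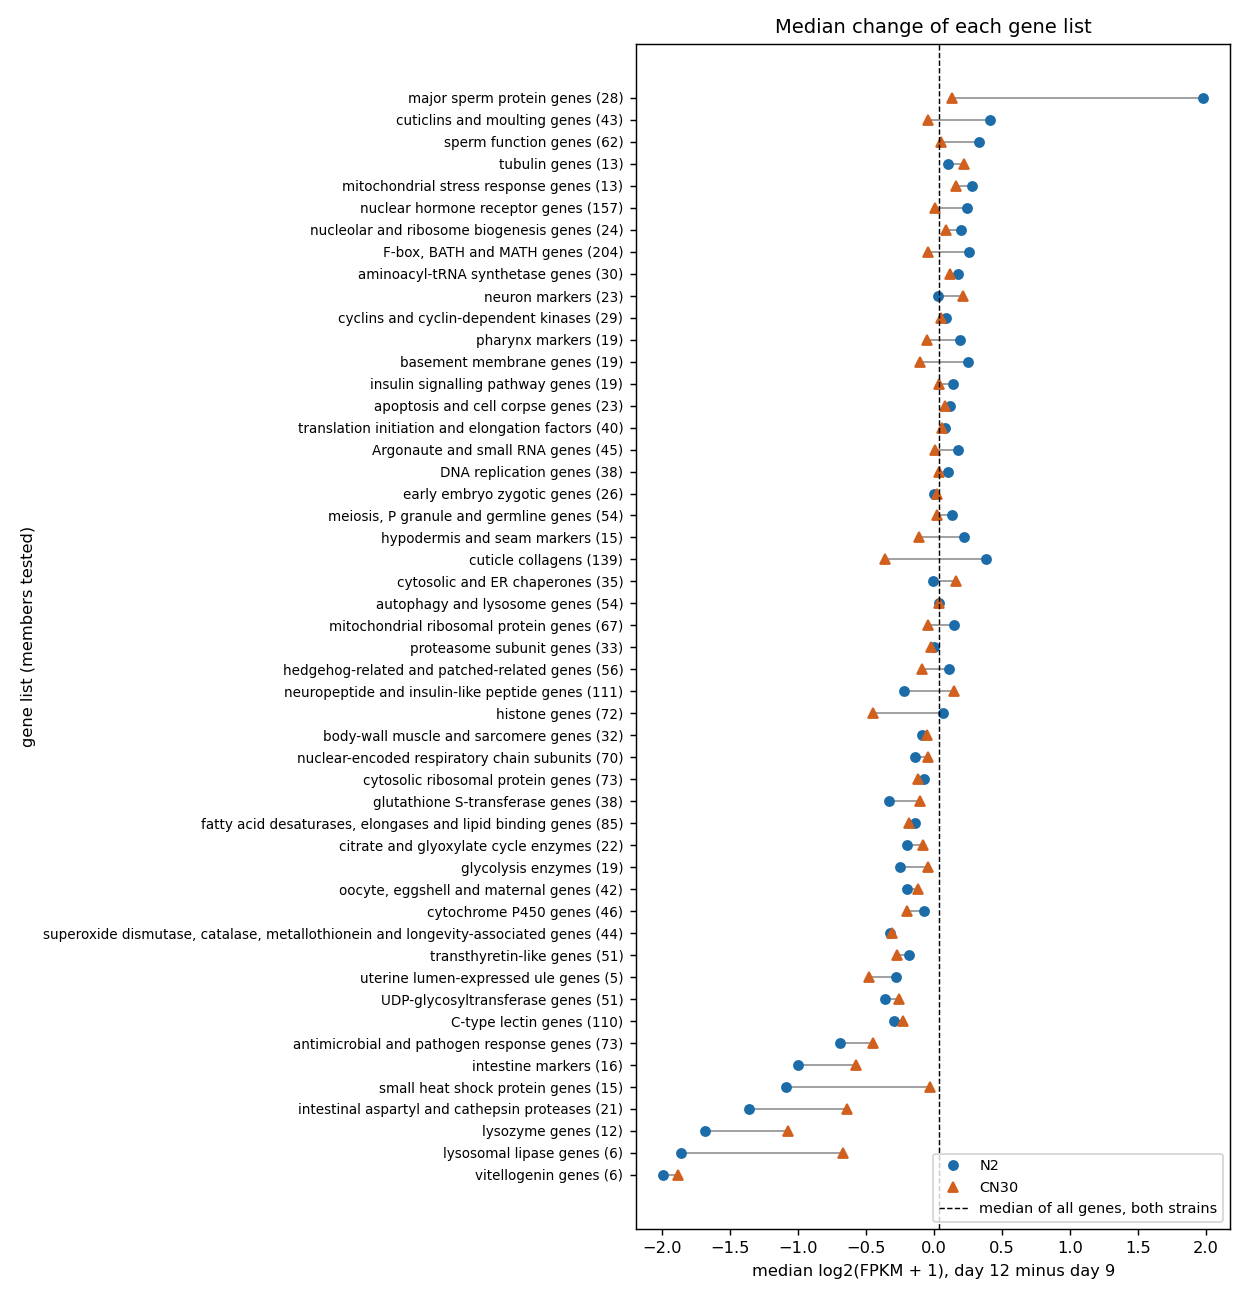
Median change in log2(FPKM + 1) from day 9 to day 12 of each gene list with at least 5 tested members, in N2 (circles) and CN30 (triangles), with the number of members tested in brackets. Yolk, lipase, lysozyme and protease lists lie lowest in both strains, and the dashed line marks the median of all genes, 0.04.

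The change from day 9 to day 12 differed between the strains in 201 genes, 1.28% of those tested. In 50 of them (0.318%) the change was higher in CN30 than in N2, and in the others (0.961%) it was lower. The heat shock genes hsp-70 and hsp-16.2 were lower at day 12 in N2 and higher in CN30. The collagen col-133 was higher at day 12 in N2 and lower in CN30, as were some of the 11 of 139 cuticle collagens that differed, and 12 major sperm protein genes had the larger increase in N2. The test gave each strain its own mean at each day, so that its spread comes from the 6 day-0 libraries alone, and the later libraries are assumed to vary like them. At an unadjusted p under 0.05, 1536 genes differed.

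In 100 of the 201 genes the strains moved in opposite directions. Of all genes tested, 24.7% were lower in both strains and 34.6% higher in both. The rest moved oppositely or did not change in at least 1 strain. Some opposite changes were slight, as for msp-33, at 3.54 and 3.51 FPKM in CN30. Of the genes that passed with the lower change in CN30, 148 were higher at day 12 in N2. Of these, 128 were so by at least 2-fold, and 19 of those that passed were lower in CN30 by at least 2-fold. N2 at day 9 was under 1 FPKM in 96 of the genes with the lower change in CN30. Of the 50 with the higher change, 44 were lower at day 12 in N2, 35 by at least 2-fold. The count of 201 became 49, 547 and 111 without N2 day-0 replicates 1, 2 and 3 in turn, and 35, 61 and 45 without those of CN30. Over all genes, N2 had 775 higher and 625 lower by at least 2-fold, and CN30 had 167 and 341.

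Of 15 small heat shock genes 1 differed, and of 35 chaperones 2, each with the higher change in CN30, against 0.318% of all genes tested. The inducible chaperone hsp-70 was at 116.36 and 5.71 FPKM in N2 and, in CN30, 9.84 and 18.85. N2 at day 9 was the highest of the 4 libraries and N2 at day 12 the lowest. The difference of the changes was 5.0 ± 0.60 on the log2 scale (adjusted p = 0.0267). The small heat shock gene hsp-16.2 was at 131.16 and 9.38 FPKM in N2, with 18.58 and 33.49 in CN30 (difference 4.49 ± 0.61, adjusted p = 0.0403). It followed the same order of libraries, and at day 6 it was at 34.99 FPKM in N2 and 8.25 in CN30. Of 12 alternative fits, the difference passed in 5 for hsp-70 and in 3 for hsp-16.2.

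The neighbouring gene hsp-16.41 was at 69.21 and 7.84 FPKM in N2, compared with 11.39 and 20.35 in CN30, and its difference did not pass (adjusted p = 0.114). The copies hsp-16.1 and hsp-16.11 had identical values, 243.17 and 34.13 FPKM in N2 and, in CN30, 52.84 and 118.47 (adjusted p = 0.174). The hsp-110 chaperone was at 237.8 and 164.3 FPKM in N2, with 137.25 and 185.11 in CN30 (difference 0.96 ± 0.13, adjusted p = 0.0439). It overlaps an assembled locus. Other genes with the higher change in CN30 were dct-8, at 219.22 and 34.71 FPKM in N2, compared with 55.21 and 81.09 in CN30, and fip-1, at 8.63 and 1.65 in N2 and 1.0 and 1.88 in CN30. The differences were 3.17 (adjusted p = 0.0111) and 2.39 (adjusted p = 0.00445).

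Intestinal genes appeared here too, in both directions. Of 16 intestine markers tested, 2 had the higher change in CN30 and 1 the lower. Of 12 lysozyme genes, 0 had the higher change and 1 the lower. Among all genes tested the shares were 0.318% and 0.961%. The saposin-like genes gave 4 of the 5 antimicrobial genes with a higher change in CN30, and 3 of 21 proteases had one, 0 of 21 a lower one. For cpr-1 the change was -2.48 in N2 and -1.11 in CN30 on the log2 scale, a difference of 1.37 ± 0.18 (adjusted p = 0.0352). For asp-1, at 2037.18 and 506.26 FPKM in N2 and, in CN30, 845.7 and 471.99, it was 1.17 ± 0.17 (adjusted p = 0.0474). Both proteases were lower at day 12 in each strain, and at day 12 the strains were closer to each other than at day 9. For lys-7, lys-1 and lys-2 the strain difference did not pass, with adjusted p of 0.625, 0.69 and 0.874.

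Of 139 cuticle collagens 11 differed, all with the lower change in CN30, against 0.961% of all genes tested. The list's median change was 0.38 in N2 and -0.36 in CN30. In 36 of the 139 the level was lower at day 12 in both strains and in 34 it was higher in both. Among all genes tested the shares were 24.7% and 34.6%. The summed level of the 171 collagens in the table was lower at day 12 in each strain, at 3211 FPKM after 3835 in N2 and 920 after 2238 in CN30. The levels of col-133 were 5.42 and 54.22 FPKM in N2, with 16.06 and 3.04 in CN30. The strains crossed, with N2 lower at day 9 and higher at day 12, and the difference was -5.18 ± 0.23 (adjusted p = 0.00249). Those of col-13 were 1.4 and 15.31 FPKM in N2, compared with 10.77 and 0.98 in CN30 (difference -5.34 ± 0.33, adjusted p = 0.00445). Those of col-12 were 5.37 and 39.72 FPKM in N2 and, in CN30, 15.23 and 2.22 (difference -5.01 ± 0.39, adjusted p = 0.00795). The level of col-133 was far under that of day 0, where it lay between 2607.15 and 3403.0 FPKM. Its standard error comes from those day-0 libraries, so the spread at the later level was not measured. In CN30 col-133 was at 93.87 FPKM at day 6, so that its 3 later ages were in descending order. The differences of col-139 and col-39 were -4.95 and -4.39, and that of col-92, which overlaps an assembled locus listed at 0 in the later libraries, was -5.04.

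**Figure D5:**
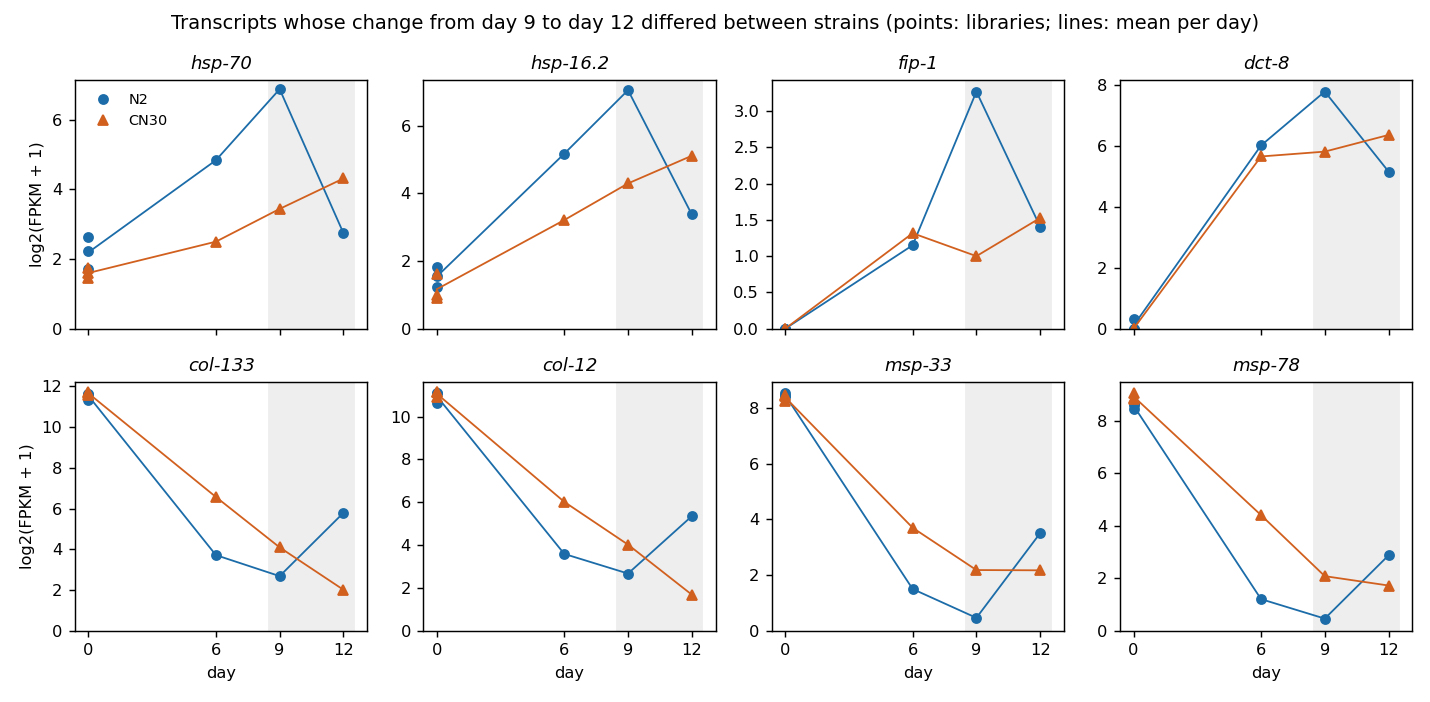
Levels of 8 genes whose change from day 9 to day 12 differed between strains, as log2(FPKM + 1) against day, with N2 as circles and CN30 as triangles. Points are libraries, lines join the mean of each day, and grey marks days 9 and 12. In the 2 heat shock panels the N2 library of day 9 is the highest, in the sperm panels it is the lowest of the 4, and in the collagen panels the strains cross.

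Major sperm proteins, the cytoskeletal proteins of the crawling sperm, gave 12 of 28 genes with the lower change in CN30 and 0 with the higher. Among all genes tested the shares were 0.961% and 0.318%. The median change of the 28 was 1.98 in N2 and 0.13 in CN30. For msp-40 the levels were 1.25 and 23.41 FPKM in N2, with 4.19 and 10.16 in CN30 (difference -2.33 ± 0.12, adjusted p = 0.00289). For msp-33 they were 0.38 and 10.38 FPKM in N2, compared with 3.54 and 3.51 in CN30 (difference -3.05 ± 0.19, adjusted p = 0.00445). Among the 4 libraries, N2 at day 9 was the lowest for both and N2 at day 12 the highest. These genes are close copies, so single members are uncertain, and 4 of the 28 had at least 1 FPKM in all 4 libraries. The summed level was 16 and 183 FPKM in N2 and, in CN30, 56.2 and 73.2, while msp-40 alone was at 798.86 FPKM or more in each day-0 library. The standard errors of these differences come from the day-0 libraries, so the spread at the far lower later levels was not measured.

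Other sperm genes gave 4 of 62 with the lower change in CN30, among them gsp-3, a sperm protein phosphatase, at 0.12 and 3.08 FPKM in N2, with 1.23 and 0.84 in CN30 (adjusted p = 0.0109). Of 13 male markers 4 were tested and 0 had 1 FPKM in all 4 libraries. Their summed level over the list was 1.26 and 3.07 FPKM in N2, compared with 4.0 and 7.32 in CN30. Cuticlins and moulting genes had 108 and 228 FPKM in N2 and, in CN30, 300.0 and 281, with 1 of 43 differing. The part of males, larvae or sperm in the libraries was not tested. F-box, BATH and MATH genes, which include substrate adaptors of ubiquitin ligases, had 9 of 204 with the lower change in CN30 and 1 with the higher. Among all genes tested the shares were 0.961% and 0.318%.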

How the data were processed

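Whole-worm mRNA of N2 and CN30 was analysed from the gene table that the authors deposited as FPKM per gene and library. Per the submitters' processing notes, HISAT, StringTie and WBcel235 were used; versions and library selection are not given in the sources used here. A deposited table of other units gives positions of assembled transcripts, per the file headers, and served to find overlaps on the same strand. Low values showed no whole-read steps, so depth is unknown and no counting interval is given. Of 19024 annotated genes, 18888 were matched to a symbol and position in WBcel235. The lncRNA table was not used.

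Linear models were fitted with limma 3.58.1 under R 4.3.3 to log2(FPKM + 1), with moderated variances that follow a trend, two-sided, with strain and day as factors over 12 libraries. Genes needed at least 1 FPKM in at least 3 libraries. P-values were adjusted over all 15719 genes, with a threshold of 0.05. The strain difference used a mean per strain and day. With 2 against 2 libraries the smallest two-sided p of an exact permutation test that ignores strain is 0.333. With days exchanged only within a strain it is larger. The calls therefore depend on variances shared between genes. The sample groups follow the labels.

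Members and the 52 gene lists were chosen with earlier results of these data known. Named genes were the 10 largest falls and rises past the threshold with at least 5 FPKM on the higher day, no exact 0 and no overlap, filled by smallest p; the 6 largest strain differences in each direction with opposite changes and at least 5 FPKM in the highest library; up to 4 members per list with the smallest p; and at most 2 genes with an exact 0 per direction. Named outside this rule, after their values were seen, were vit-5, ilys-5, lys-3, his-47, his-57, his-65, F55G11.6, F55G11.8, aagr-1, nas-20, nlt-1, lec-9, T01D3.6 and F01D5.5. Of the lists, the protein genes of the mitochondrial genome had 0 members in the table.

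The alternatives changed the pseudocount (to 0.1), the filter (to none), the scaling (quantile or median-ratio), the shrinkage (robust) and the libraries; others were further fits with other strain terms, the replicate number as a block, or each library left out in turn. On simulated data, with 100 genes changed by each size, the pipeline recovered 69% of log2 changes of 1 and 94% of those of 2 for day 12 against day 9, with 6.86% of calls false. For the strain difference it recovered 4% and 38%, with 2.33% false. Apart from the planted change, each simulated gene had the same mean in every library, with the spread of the day-0 replicates. Strain and age effects and unequal changes of the strains were left out. Only genes with a mean log2 level above 2 were changed. These rates hold for that setting and need not hold for the real libraries. Matplotlib 3.10.9 drew the figures, and tables were made with pandas 2.3.3 and NumPy 2.4.6 under Python 3.11.15.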

Additional observations from a re-analysis of the deposited data

Results flagged for a closer look

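The following genes stand out because their change from day 9 to day 12 differed between the strains in a test of that difference, given as the CN30 change minus the N2 change on the log2 scale. It was 5.0 for hsp-70, 4.49 for hsp-16.2, 3.37 for sym-4, 3.17 for dct-8, 3.02 for D1086.9 and 2.39 for fip-1, which were chosen for opposite changes in the strains, here lower at day 12 in N2 and higher in CN30. Of these, sym-4 went from 0.66 to 6.18 FPKM in CN30, where D1086.9 was at 0.79 and 0.8 FPKM. The gene sym-4 overlaps an assembled locus, MXLOC_022421, which was at 28.39 and 26.15 FPKM in CN30.

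The difference was -5.34 for col-13, -5.18 for col-133, -5.04 for col-92, -5.01 for col-12, -4.95 for col-139 and -4.39 for col-39, which were chosen for opposite changes in the strains, here higher at day 12 in N2 and lower in CN30.

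Among genes that passed day 12 against day 9, it was 4.30 for spp-1, 1.25 for F48E8.4 and 1.11 for pole-3. Each of these 3 overlaps an assembled locus. For spp-1 and F48E8.4 1 of the 4 libraries was listed at 0, so the pseudocount sets the value, which is not a fold.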

How the results depend on the processing

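Against 52 genes for day 12 against day 9, 21 passed under median-ratio rescaling (4 higher, 17 lower), 0 with days 6, 9 and 12 only and 0 with days 9 and 12 only. With the product of strain and age class added it was 352 (118 higher, 234 lower), and with a mean for each strain at each day 926 (513 higher, 413 lower). The range over each library left out was 10 to 175. With no filter it was 68, of which 32.4% were higher against 11.5% of the 52, and a pseudocount of 0.1 gave 60, quantile normalization 35, robust shrinkage 51 and the fit without both day-6 libraries 55. Against 201 genes for the strain difference, a pseudocount of 0.1 gave 484 and no filter 1608, and the range over the day-0 libraries left out was 35 to 547. The causes were not tested.

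Replicate numbers exist only at day 0, where same-numbered libraries of the strains had correlations of 0.0448, -0.04 and -0.0148 between their deviations, so the numbers do not pair them. With the replicate number as a block 5 genes passed for day 12 against day 9 and 2 for the strain difference.

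Of the falls, lys-7, irg-6, T01D3.6 and F01D5.5 each passed in 21 of 23 alternatives and drd-50 in 3. Of the strain differences, col-133 passed in 12 of 12 alternatives, hsp-70 and hsp-110 in 5 each and hsp-16.2 in 3. No gene that passed reversed. Among genes that did not pass, tbb-1 changed sign under quantile normalization (0.02). With each library left out, the log2 value of 8 others crossed 0 at 1 end of its range. These were clec-207 (-1.22 to 1.15, and 0.97 without CN30 day 12), clec-219 (-0.74 to 0.79, and -0.70 without N2 day 12), nhr-25 (-0.06 to 1.42), sdz-35 (-0.04 to 1.64), gpd-2 (-0.91 to 0.00), nas-21 (-0.33 to 0.01), grd-5 (-2.37 to 0.33) and mig-17 (-0.92 to 0.09). With 1 library per strain and day, the spread at days 9 and 12 is not measured within a strain.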
